A study of Rattus norvegicus with 10 samples.

Results

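Mip and Lim2 code for membrane proteins of the lens fibre cell, and their RNA was followed here in the lens capsules of 10 male Sprague-Dawley (SD) rats aged 6 weeks. The members were the rows named Mip or Lim2 in the deposited table, 2 of the 3334 genes it lists. The 5 samples of the Hypothermia Group come from lenses stored for 8 h at 4°C in Hibernate-A, a medium for keeping tissue outside an incubator. The 5 controls of the Normal Group had no storage step at all, neither cold nor medium, so cold, medium and time outside the eye cannot be told apart. A sample pools the left and right capsule of 1 animal. The table is a list of genes that had already differed between the groups in the authors' own comparison, so a gene's presence in it is not a finding, and every share of genes called below is a share of changed genes. The listed genes added up to between 4792595 and 12415121 counts per rat, of which Mip had between 2739 and 97567 and Lim2 between 2624 and 41668.

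Lens fibre cells arise from the epithelium under the anterior capsule, elongate, fill with crystallins and lose their organelles. Mip, also called aquaporin-0, is the main membrane protein of these cells, where it works as a water channel and in the adhesion of neighbouring fibres. Lim2, also called MP20, is another abundant fibre membrane protein, of the PMP22, EMP and MP20 family, and is needed for the fusion of fibre cells in the lens core. Mutations in either gene cause cataract. The tissue also carried the lens epithelium: Pax6, a transcription factor of the epithelium and of eye development, had an FPKM between 132 and 169 in all 10 rats, and the gap junction gene Gja1 one between 251 and 481. FPKM is the number of fragments per kilobase of gene, brought by the authors to a common depth with the same size factors in place of library totals.

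The start regions of both genes are shown because the genes moved together over the rats. Each was taken from RefSeq on the GRCr8 build, with 250 bases before and 50 after the annotated start. Both genes were matched by symbol, and the first region with that symbol was used. Capitals mark matches to 5 motifs that were searched on both strands: TATAAA (the TATA box), GAANNTTC (the core of a heat shock element), TGCTGA (the core that Maf proteins recognise), GGGCGG (the GC box) and CCAAT (the CCAAT box). The Mip region is chr7:1231655-1231954 and the Lim2 region chr1:102973938-102974237, both on the plus strand of GRCr8:
Mip: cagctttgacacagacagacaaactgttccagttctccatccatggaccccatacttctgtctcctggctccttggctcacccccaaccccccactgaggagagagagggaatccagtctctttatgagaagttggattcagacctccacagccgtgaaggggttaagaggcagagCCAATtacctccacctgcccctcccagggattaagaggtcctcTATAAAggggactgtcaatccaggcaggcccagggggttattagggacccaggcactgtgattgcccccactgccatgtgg
Lim2: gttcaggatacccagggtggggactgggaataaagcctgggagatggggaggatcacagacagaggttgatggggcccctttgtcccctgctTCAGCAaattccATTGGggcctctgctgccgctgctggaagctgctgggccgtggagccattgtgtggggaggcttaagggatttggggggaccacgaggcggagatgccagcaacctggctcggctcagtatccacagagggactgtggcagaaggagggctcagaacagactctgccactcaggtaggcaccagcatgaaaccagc

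The TATA box motif began 31 bases before the start of Mip and was not among the letters of the Lim2 window. It stood in 14.2% of all 33469 rat start regions of this length and in 6.98% of the 2592 that carried a listed gene's symbol. The Maf core stood on the opposite strand of Lim2, from 158 bases before the start, as TCAGCA, and in 18.4% of all regions and 15.4% of those of listed genes. Each gene had the CCAAT letters, from 74 bases before the start of Mip and, on the opposite strand, from 146 bases before that of Lim2, and so did 37.5% of all regions and 37.2% of those of listed genes. The heat shock element core (8.59% of all and 5.17% of listed regions) and the GC box (33.1% and 62.4%) matched in neither window, and none of the matches overlapped another. Of 16 regions of 14 crystallin genes, 9 held the Maf core, 4 the TATA box, 3 the CCAAT box and 0 the GC box or the heat shock element core. G and C made up 55.3% of the Mip window and 60.0% of the Lim2 window.

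Mip was higher in the lens capsules of the Hypothermia Group. In the deposited table the gene lies on the plus strand of chromosome 7 of Rnor_6.0, from 2635743 to 2642848, and its gene model counts 2295 bases. Its FPKM in Hypothermia rats 1 to 5 was 2594, 1500, 1762, 1087 and 3432. In Normal rats 1 to 5 it was 700.3, 157, 57.1, 97.7 and 370. The lowest Hypothermia rat stood 1.55 times above the highest Normal rat, so the groups did not overlap. The log2FoldChange of Mip, the group difference in the counts, came to 2.91 with a standard error of 0.66, which is a 7.51-fold difference (4.74-fold to 11.9-fold at 1 standard error either way). It passed the test (edgeR, adjusted p = 0.0167). Like Lim2 it was chosen because it was known to differ in these rats, so this call adds the size of the difference and not independent evidence of its direction.

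Lim2 was higher as well. Its start region is on the plus strand of GRCr8, as given above. In Rnor_6.0 the table places Lim2 on the minus strand of chromosome 1, from 98495082 to 98501249, with a gene model of 829 bases. A noncoding RNA, LOC102550061, overlaps it in the RefSeq annotation of GRCr8, and whether reads were counted by strand is not given in the sources used here, so reads of that RNA may be counted with it. The FPKM values of Hypothermia rats 1 to 5 were 3112, 1940, 2729, 1678 and 4057. Those of Normal rats 1 to 5 were 954, 363, 151, 220 and 476. Here the lowest Hypothermia rat stood 1.76 times above the highest Normal rat. The log2FoldChange of 2.64 with a standard error of 0.48 is a 6.25-fold difference (4.47-fold to 8.72-fold at 1 standard error either way), and edgeR gave an adjusted p of 0.00745. DEGs were taken as genes past the edgeR test at 0.05 whose log2FoldChange exceeded 1 in size. On the higher side they made up 10.3% of the 3222 tested genes, with both members among them, and on the lower side 1.89%. This balance depended on the scaling: 331 DEGs were higher and 61 lower with the authors' size factors, and 186 and 205 with TMM, another scaling. Groups without overlap, higher in the Hypothermia Group, were found in 41.9% of tested genes, so the separation of the groups is common in this list. An exact permutation test (two-sided) of log2 normalized counts gave p = 0.00794 for each gene, the smallest that 5 rats against 5 allow. The difference of the group means of these values was 3.36 for Mip (95% interval 1.56 to 4.98). For Lim2 it was 2.86 (95% interval 1.67 to 4.17). In bulk tissue, more fibre cells in a Hypothermia sample and more RNA per cell cannot be told apart.

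**Figure D1:**
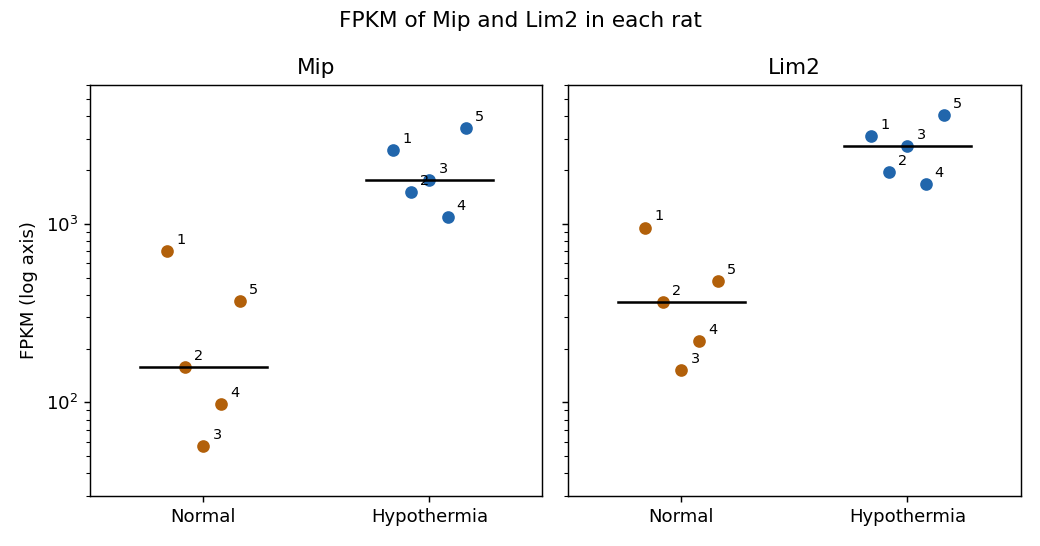
FPKM of Mip and Lim2 on a shared log axis, with 1 point per rat, numbered by replicate, and a line at each group's median. All 5 Hypothermia rats lie above all 5 Normal rats for both genes, and the Normal rats are spread wider, from 57.1 to 700.3 for Mip.

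Per length, Lim2 was the more abundant of the pair in each of the 10 rats, while Mip drew more reads because its gene model is longer. By mean FPKM, Lim2 ranked 19 among the 3334 listed genes in the Hypothermia Group and 54 in the Normal Group, and Mip 23 and 96. Mip took between 0.387% and 0.850% of the listed counts in Hypothermia rats and between 0.0572% and 0.354% in Normal rats. The Normal rats differed most among themselves. Between the highest and lowest Normal rat the FPKM differed 12.3-fold for Mip and 6.30-fold for Lim2, against 3.16-fold and 2.42-fold in the Hypothermia Group. The standard deviation of log2 normalized counts of Mip was 1.45 in the Normal Group and 0.65 in the Hypothermia Group, and that of Lim2 was 1.03 and 0.52. Both genes put the rats of each group in the same order. From high to low this was 5, 1, 3, 2 and 4 in the Hypothermia Group and 1, 5, 2, 4 and 3 in the Normal Group. In both groups the neighbours in this order are single rats, whose own measurement error is not known.

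The size of the difference depended on the Normal rats and on the scaling, and the calls held. When each of the 10 rats was dropped in turn, the log2FoldChange of Mip lay between 2.65 and 3.61 and that of Lim2 between 2.43 and 3.16, with the highest value of each without Normal rat 1. Across 10 other ways of processing, edgeR or DESeq2 gave Mip between 1.85 and 3.35 and Lim2 between 1.53 and 2.86, with adjusted p-values of at most 0.0354 and 0.0188. The lowest values came with the listed-gene totals as library sizes, which moved the log2FoldChange of all genes by a median of -1.23. Relative to the median of all tested genes, Mip stood 2.55 higher in the reported fit and 2.72 higher with the totals, and Lim2 2.28 and 2.40.

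**Figure D2:**
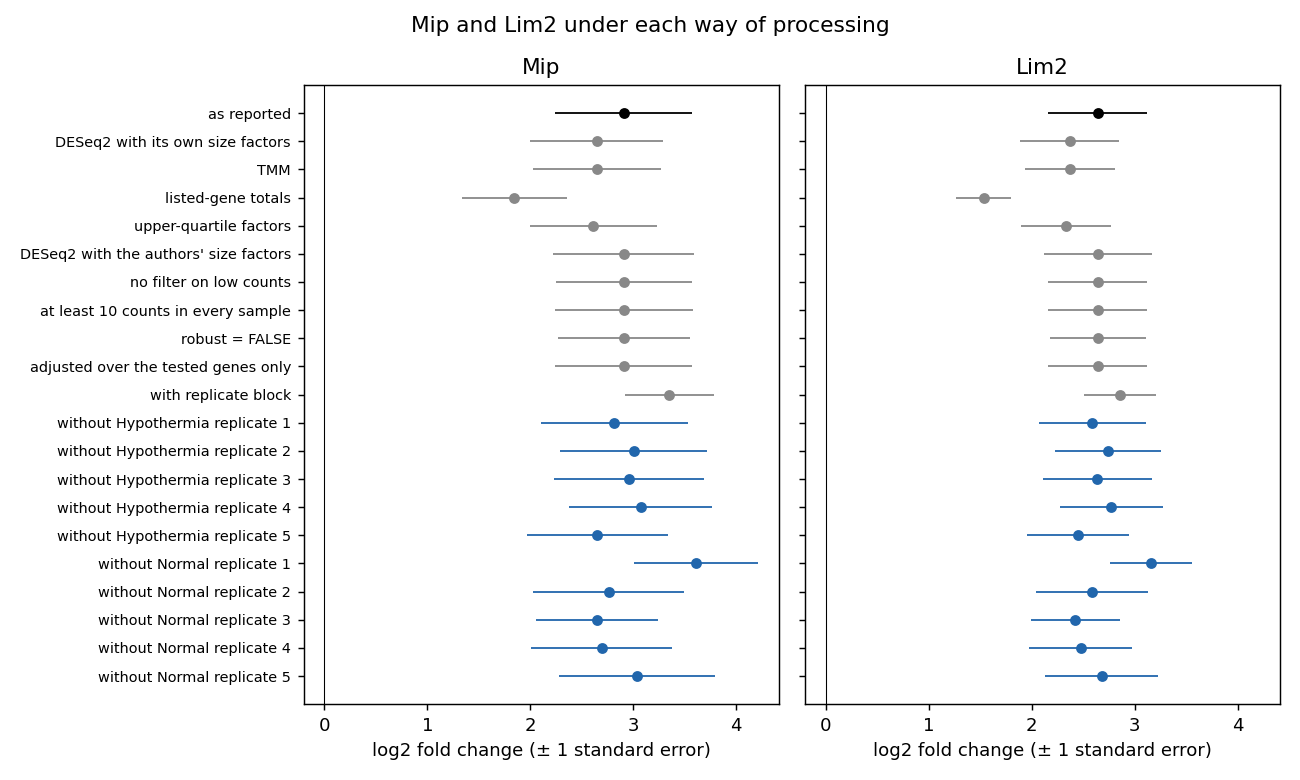
Log2FoldChange of Mip and Lim2 (points, with bars of 1 standard error) as reported (black), under 10 other settings (grey) and with each rat left out (blue). Each value lies above 0, the lowest being 1.85 for Mip and 1.53 for Lim2 with listed-gene totals.

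Whether the pair moved more than other fibre cell genes was asked with ratios within each rat, which do not depend on the scaling between rats. Mip FPKM as a share of Lim2 FPKM was 83.4%, 77.3%, 64.6%, 64.8% and 84.6% in Hypothermia rats 1 to 5, and 73.4%, 43.3%, 37.7%, 44.4% and 77.6% in Normal rats 1 to 5. Normal rats 1 and 5 lay among the Hypothermia rats, and the other 3 lay below all of them. The log2 ratio was higher by 0.49 in the Hypothermia Group, with a 95% interval from -0.09 to 0.99 (exact permutation test, two-sided p = 0.103, also after Benjamini-Hochberg adjustment over 5 ratios), so a different size of change in the 2 genes was not shown. Without Normal rat 5 the difference was 0.62 (exact permutation test, adjusted p = 0.0476).

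The crystallins are the soluble proteins that fill the fibre cell, and 15 of their genes were listed. Lim2 FPKM came to between 0.382% and 0.653% of their summed FPKM in Hypothermia rats and between 0.233% and 0.368% in Normal rats, without overlap. The log2 ratio was 0.75 higher in the Hypothermia Group (95% interval 0.30 to 1.17, exact permutation test, two-sided adjusted p = 0.0132). For Mip the shares were 0.545%, 0.409%, 0.278%, 0.248% and 0.436% in Hypothermia rats 1 to 5 and 0.270%, 0.101%, 0.109%, 0.107% and 0.276% in Normal rats 1 to 5. Its log2 ratio was 1.24 higher (95% interval 0.22 to 2.17, exact permutation test, adjusted p = 0.0397), but the groups overlapped, and the call was lost without any of Hypothermia rats 1, 2, 3 and 5 or Normal rats 2, 3 and 4, when the difference lay between 1.08 and 1.34 (exact permutation test, adjusted p from 0.0595 to 0.0794).

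Bfsp1 and Bfsp2 build the beaded filament, the fibre cell's own intermediate filament, which is tied to the membrane. Mip FPKM was between 82.0% and 154% of their sum in Hypothermia rats and between 21.2% and 79.3% in Normal rats. The log2 ratio was 1.48 higher (95% interval 0.39 to 2.39, exact permutation test, adjusted p = 0.0132). Lim2 FPKM was between 127% and 185% of the sum in Hypothermia rats and between 56.1% and 102% in Normal rats, a log2 difference of 0.997 (95% interval 0.43 to 1.49, exact permutation test, adjusted p = 0.0132). In both cases the groups did not overlap. Each of the 4 ratios to crystallins or beaded filament genes was thus higher on average in the Hypothermia Group. Mip and Lim2 so differed more between the groups than the sum of those genes did. For Mip against the crystallins, though, the groups overlapped and the call depended on single rats. The crystallin sum weighs each gene by its FPKM, and its largest part, Cryaa, had a log2FoldChange of 1.70. Against the mean of log2 crystallin values, which weighs each gene alike, the differences were 0.996 for Mip and 0.51 for Lim2. Of the 15 crystallin genes, 1 (Cryga, 2.68) was above Lim2 in log2FoldChange, and none was above Mip.

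**Figure D3:**
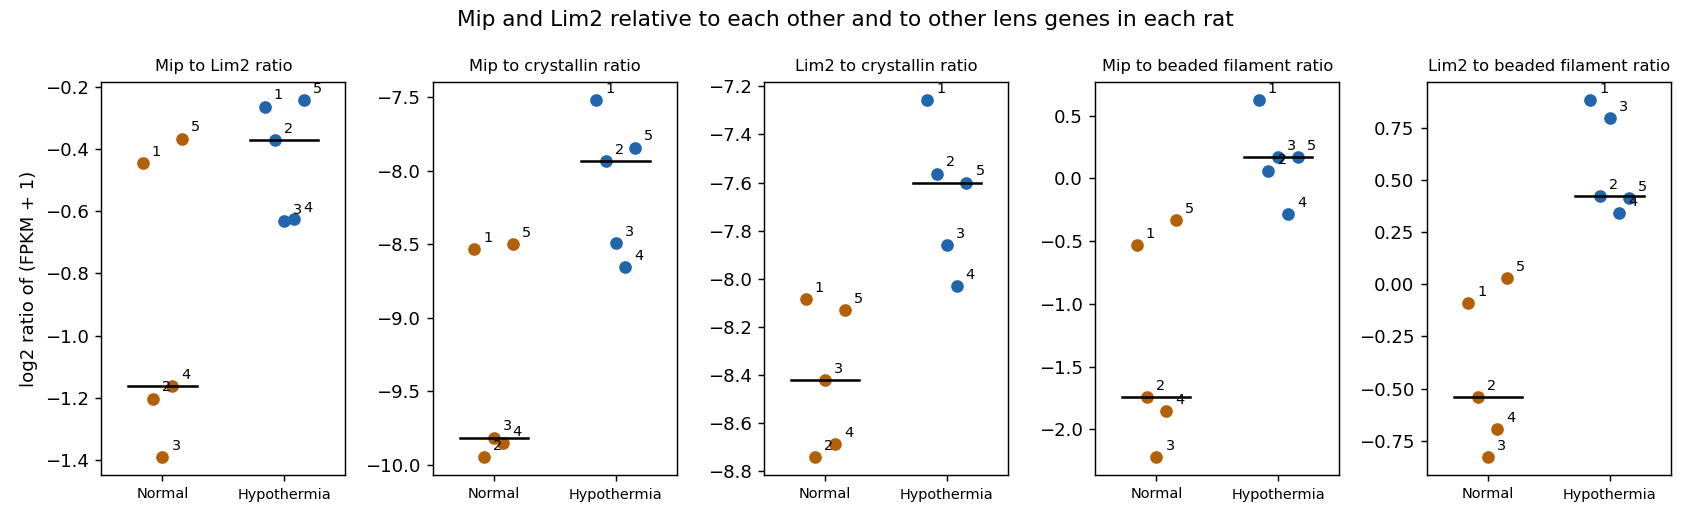
Log2 ratios of FPKM + 1 in each rat, numbered by replicate, with a line at each group's median. Normal rats 1 and 5 stand above the other 3 Normal rats in each panel, and the groups are apart for both ratios of Lim2 to other genes and for Mip to beaded filament genes.

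Of the water channel family of Mip, 2 of 12 members were listed and both were higher. The other was Aqp5, a water channel also found in the lens, with a far lower level. Its FPKM was between 6.89 and 17.0 in Hypothermia rats and between 1.14 and 4.41 in Normal rats, and its log2FoldChange was 2.26 (standard error 0.38, edgeR adjusted p = 0.00596). Over all tested genes, 52.3% passed the test on the higher side and 20.5% on the lower side, with a median log2FoldChange of 0.36. Of the PMP22, EMP and MP20 family of Lim2, 3 of 6 were listed. Nkg7, a granule membrane protein best known from killer lymphocytes, rose with a log2FoldChange of 1.77 (standard error 0.37, edgeR adjusted p = 0.0102), with an FPKM between 1.43 and 3.76 in Hypothermia rats and between 0.437 and 1.07 in Normal rats. Emp1, an epithelial membrane protein, had an FPKM between 0.188 and 1.03 in Hypothermia rats and between 0.651 and 2.61 in Normal rats. Its log2FoldChange was -1.59 (standard error 0.49) and did not pass with edgeR (adjusted p = 0.0534), while DESeq2 gave an adjusted p of 0.0137.

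Connexins form the gap junctions that join fibre cells to each other and to the epithelium. Of 4 lens connexin genes, 3 were listed. Gja3, the connexin 46 gene of fibre cells, had an FPKM between 273 and 416 in Hypothermia rats and between 101 and 190 in Normal rats, and rose with a log2FoldChange of 1.35 (standard error 0.20, edgeR adjusted p = 0.00459). This was the median of the 3 listed connexins, and with listed-gene totals that median was 0.14. Gje1, a connexin gene of the lens, had one of 1.84 (standard error 0.53, edgeR adjusted p = 0.0405), but its groups overlapped and it passed in only 1 of the 10 leave-one-out fits. Gja1, the connexin 43 gene of the epithelium, had lower values in every Hypothermia rat (251 to 345) than in any Normal rat (357 to 481). Its log2FoldChange was -0.43 (standard error 0.14) and did not pass with edgeR (adjusted p = 0.0567), while DESeq2 gave an adjusted p of 0.00430.

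Among 22 genes for the fibre cell's membrane skeleton and adhesion, or for proteins known to bind or modify the Mip or Lim2 protein, 17 were listed. Of these, 13 rose, none fell and 4 did not pass the test, with a median log2FoldChange of 1.17, beside 52.3% of all tested genes that rose, 20.5% that fell and their median of 0.36. The log2FoldChange was above 0 for all 17 with the authors' size factors, for 16 with TMM, upper-quartile or DESeq2's own factors, and for 7 with listed-gene totals, while the list's median stayed 0.80 to 0.81 above that of all tested genes. Lgals3 codes for galectin-3, which binds the Lim2 protein, and rose from an FPKM of 33.8 ± 13.4 to one of 93.2 ± 20.6 (SD, n = 5 rats each). Akap2 anchors protein kinase A at the Mip protein and rose with a log2FoldChange of 1.99 (standard error 0.34, edgeR adjusted p = 0.00625). Calm2 codes for calmodulin, which closes the Mip channel, and rose with a log2FoldChange of 0.42. The membrane linker genes Ezr (0.80), Ank2 (0.46), Sptan1 (0.91) and Sptbn1 (1.18) rose, as did the adhesion gene Nrcam (1.86) and the fibre scaffold gene Prx (1.17). Ank2 passed in 4 of the 10 leave-one-out fits. The beaded filament genes rose with log2FoldChanges of 2.16 (Bfsp1) and 1.53 (Bfsp2), and Bfsp1 passed in 5 of the 10 leave-one-out fits. Lctl, a klotho-like membrane protein of the lens, had the highest value of the list (2.28, standard error 0.59) and passed in 4 of these fits. The 4 that did not pass were Tmod1, an actin filament cap (1.31, standard error 0.44, edgeR adjusted p = 0.0825), Epha2, an ephrin receptor (0.81, standard error 0.29), and the kinase genes Prkca (1.04, standard error 0.34) and Prkaca (0.27, standard error 0.09). DESeq2 gave these 4 adjusted p-values of 0.0115 (Tmod1), 0.0288 (Epha2), 0.0180 (Prkca) and 0.0200 (Prkaca).

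**Figure D4:**
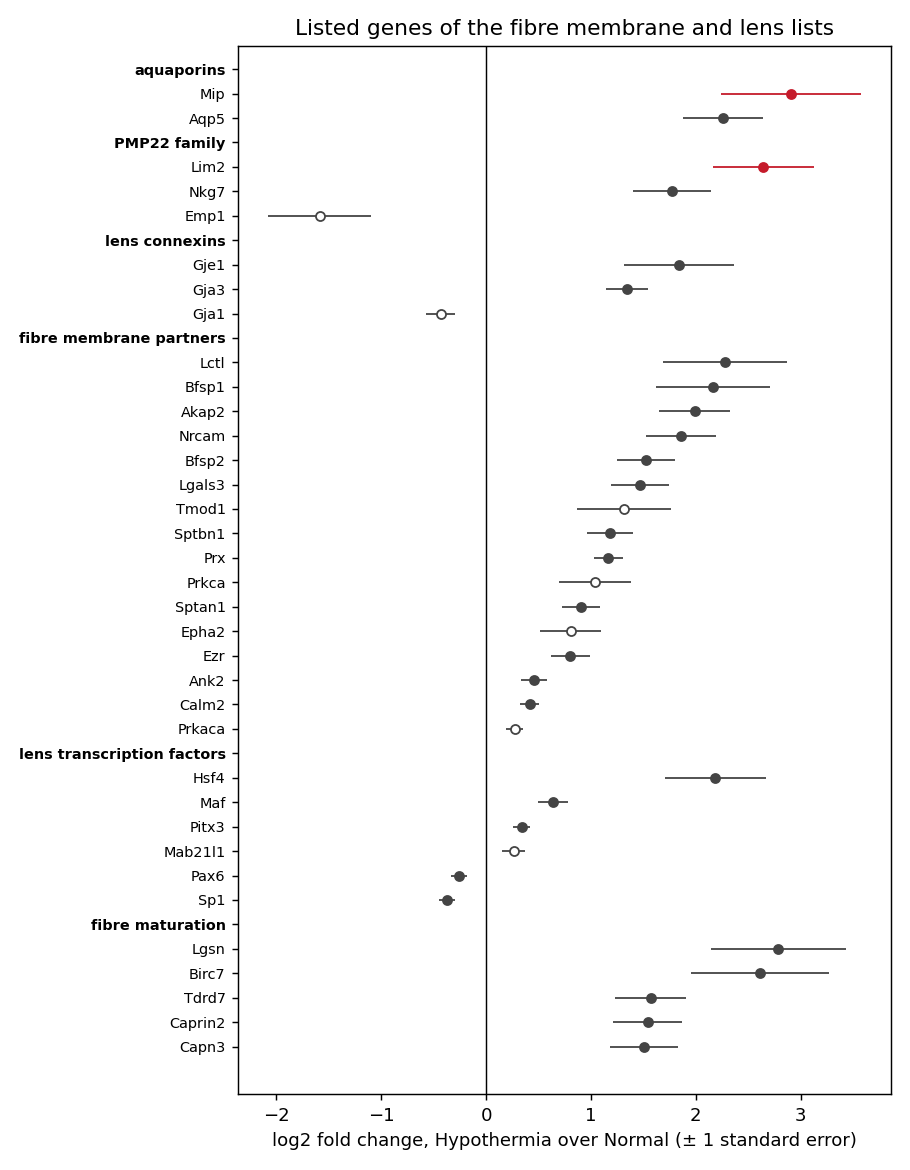
Log2FoldChange (points) with 1 standard error either way for the tested members named in the text from 6 gene lists, filled where the adjusted p is under 0.05 and open where it is not. Mip (2.91) and Lim2 (2.64) are in red, and Gja1, Emp1, Pax6 and Sp1 lie below 0.

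All 5 listed genes of fibre maturation, out of 6, rose and had groups without overlap, against 52.3% of all tested genes that rose and 41.9% with groups apart on the higher side. Lgsn, which codes for lengsin, had a log2FoldChange of 2.79 (standard error 0.65, edgeR adjusted p = 0.0186), between those of Mip and Lim2. Birc7, an inhibitor of apoptosis protein also known as livin that takes part in the loss of organelles, had one of 2.61 (standard error 0.66) and passed in 5 of the 10 leave-one-out fits. Tdrd7, Caprin2 and Capn3 lay between 1.51 and 1.57. The 15 listed crystallin genes, read against the same shares, rose with a median of 2.14, and of these 1 (Cryga, 2.68) was above Lim2 and none above Mip. Of these 15, 7 passed in all 10 leave-one-out fits, while Cryga and Crygf passed in 4, Crygc and Crygd in 5, Cryaa in 6, Cryab and Cryba1 in 8 and Crygb in 9. These 2 lists had log2FoldChanges above 0 for all members with each of the 5 scalings. With listed-gene totals the medians shrank, to 1.02 for the crystallins and 0.40 for fibre maturation. Calls were then lost as well, with 14 of the 51 listed members of all lens gene lists called higher. Of the 12 lens transcription factors, 6 were listed. Hsf4 (2.19), Maf (0.64) and Pitx3 (0.34) rose, Sp1 (-0.37) and Pax6 (-0.26) fell, and Mab21l1 (0.26, standard error 0.11) did not pass the test. With listed-gene totals only Hsf4 of these stayed above 0, and Pax6 passed in 1 of the 10 leave-one-out fits.

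Markers of other cells that a capsule could carry were few in this list. The list holds only genes that differed, so a marker missing from it may still be expressed without a difference. Its absence therefore says nothing on which cells the capsules carried. Of 6 markers of lens epithelium, Pax6 and Gja1 were listed, and their summed FPKM was between 390 and 486 in Hypothermia rats and between 526 and 649 in Normal rats, without overlap and opposite in direction to Mip and Lim2. Groups apart on the lower side were found in 16.7% of all tested genes. Crystallin FPKM summed to between 367024 and 787428 in Hypothermia rats and to between 52247 and 259341 in Normal rats. The part of a different mix of fibre and epithelial cells in the difference of Mip and Lim2 was not tested. None of 10 photoreceptor, 4 smooth muscle and 3 corneal epithelium markers was listed. Of 7 pigment epithelium markers 4 were listed, with a summed FPKM between 3.65 and 5.18 in Hypothermia rats and between 6.36 and 9.46 in Normal rats. Among them Rlbp1, a retinoid carrier, did not pass with edgeR (log2FoldChange -0.43, adjusted p = 0.0749), while DESeq2 gave an adjusted p of 0.0447. Pmel, a melanosome protein, fell with a log2FoldChange of -1.77 (standard error 0.42, edgeR adjusted p = 0.0171) and passed in all 10 leave-one-out fits, though its groups overlapped. Rpe65 (0 to 0.236 in Hypothermia rats, 0.128 to 0.725 in Normal rats) and Tyr (0 to 0.142 and 0.111 to 0.663) were below the filter on low counts. Without that filter edgeR gave adjusted p-values of 0.0347 for Rpe65 and 0.0511 for Tyr. Those from DESeq2 were 0.00948 and 0.0166. Of 6 fibroblast markers Col1a1 and Pdgfrb were listed, with a sum between 4.13 and 8.90 against 9.69 and 16.9. Pdgfrb, a receptor of pericytes and fibroblasts, fell with a log2FoldChange of -0.87 (standard error 0.18, edgeR adjusted p = 0.00965), without overlap and in all 10 leave-one-out fits. The collagen gene Col1a1 did not pass with edgeR (-2.63, adjusted p = 0.0657), while DESeq2 gave an adjusted p of 0.0124. Of 12 markers of blood, immune cells and endothelium only Vwf was listed, at up to 1.26 in Hypothermia rats and 2.39 in Normal rats.

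The genes most like Mip over the rats were sought by the root mean square difference of log2 normalized counts over the 10 rats, after centring each gene on its own mean, among 2980 other genes whose normalized counts averaged 50 or more. The median gene differed from Mip by 1.79 on this log2 scale. The nearest 5 were Slc24a2, a sodium, calcium and potassium exchanger (0.32), LOC102548682 (0.34), Wnt7a, a secreted Wnt ligand (0.38), Lctl (0.41) and Lim2 itself (0.41). For Lim2 the median gene differed by 1.43, and the nearest 5 were Wnt5b, another Wnt ligand (0.26), Lctl (0.27), the heat shock transcription factor gene Hsf4 (0.28), an unnamed gene on chromosome 14 from 94321024 to 94644142 (0.31) and Sh2d5, which codes for an SH2 domain protein (0.31). Mip came at place 25 for Lim2. Lctl, the gene near both, averaged an FPKM of 37.1 ± 35.2 in Normal rats and 180 ± 67.0 in Hypothermia rats (SD, n = 5 each). All rats share 1 scaling and the group difference enters this measure, so it describes these samples.

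**Figure D5:**
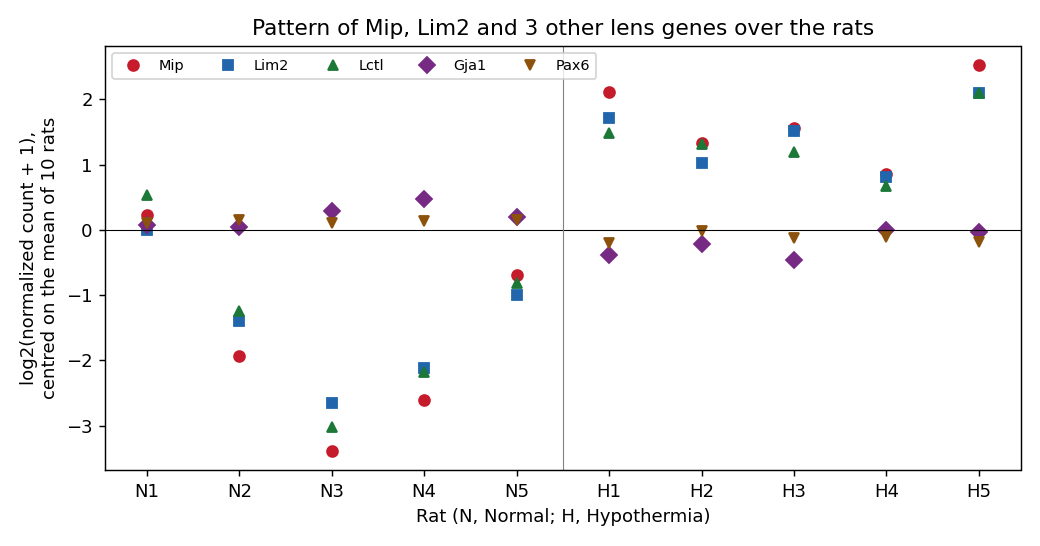
Log2(normalized count + 1) of Mip, Lim2, Lctl, Gja1 and Pax6 in each rat, centred on each gene's mean over the 10 rats. Mip, Lim2 and Lctl lie low in Normal rats 2 to 5 and high in all Hypothermia rats, while Gja1 and Pax6 lie slightly higher in the Normal rats.

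The genes beside Mip and Lim2 were looked at after their values had been seen, within 25 kb in the deposited table. Timeless, a gene of DNA replication and the cell's clock, begins 439 bases downstream of Mip on the same strand of chromosome 7. Its FPKM was 25.2, 15.9, 15.7, 11.6 and 23.3 in Hypothermia rats 1 to 5 and 9.87, 5.94, 6.02, 5.72 and 7.32 in Normal rats 1 to 5. The log2FoldChange of Timeless was 1.39 (standard error 0.23, edgeR adjusted p = 0.00559), and it passed in all 10 leave-one-out fits. Upstream of Mip, Gls2, a glutaminase, had a log2FoldChange of 0.92 (standard error 0.16) and Spryd4 one of 0.60 (standard error 0.16). Nkg7, of the same protein family as Lim2, lies 1103 bases downstream of Lim2 on the same strand of chromosome 1, with between 7 and 41 counts per rat. Etfb, an electron transfer protein of mitochondria, lies 8105 bases downstream of Lim2 and had a log2FoldChange of 0.54 (standard error 0.11). With listed-gene totals Timeless (0.18) and Nkg7 (0.51) stayed above 0 without passing the test, and Gls2 (-0.30) and Spryd4 (-0.59) lay below 0 without passing it. Etfb turned with these totals to a call on the lower side (-0.71, edgeR adjusted p = 0.0160), and with TMM it did not pass (0.24, edgeR adjusted p = 0.201). Spryd4 did not pass with TMM either (0.32, edgeR adjusted p = 0.270), its groups overlapped and it passed in 4 of the 10 leave-one-out fits. The FPKM of each neighbour was lower than that of its member in every rat. Whether reads were assigned across these gene borders was not tested.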

How the data were processed

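RNA from lens capsules was sequenced in 10 rats, 5 per group. Per the labels and the study's methods, paired-end reads were aligned to Rnor_6.0 with HISAT2 2.0.5 and counted per gene with featureCounts 1.5.0-p3, and the annotation release and strand setting are not given in the sources used here. The deposited counts are whole reads per gene without normalization, and FPKM, computed by the authors from these counts, adds the gene length. The 2 columns of group means are the authors' DESeq2 (version 1.16.1) normalized counts, which are a signal. The deposited log2 fold changes and p-values of the authors' own comparison gave no result here and showed only what the table lists: its smallest size of a log2 fold change is 0.25.

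The authors' size factors were recovered from the group means by least squares, with relative errors of at most 9.19e-10, and FPKM values were found to hold them. The fit over all listed genes used edgeR 4.0.16 under R 4.3.3 (filterByExpr, glmQLFit with robust = TRUE, glmQLFTest) on these size factors, with group as the only factor. Since the table holds changed genes only, p-values were adjusted by Benjamini-Hochberg as for 17000 genes, a round figure for those expressed. On simulated counts for the 3334 genes of this comparison, 81.0% of 200 genes changed by 1 on the log2 scale had an adjusted p under 0.05, as did 1 unchanged gene. The changed genes were drawn from those above a limit on low counts, and all others were left unchanged, unlike in the real list. The fit was given the size factors used to draw the counts. Genes with few counts and uncertain scaling were thus not covered. Single values used exact permutation tests over 252 assignments, and logarithms a pseudocount of 1. Intervals of ratios come from inverting that test. DESeq2 1.42.0, scipy 1.17.1 and matplotlib 3.10.9 were also used.

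The members, the 14 gene lists and the tests were chosen with earlier results of these data known. Named genes are Mip and Lim2, listed members of the lists, and the 5 genes nearest to each in pattern, and 1 called list member is counted but not reported by name here. The neighbours of Mip and Lim2 on the chromosome fall outside this rule and were added after their values were seen. Alternatives were TMM, upper-quartile and DESeq2 factors, listed-gene totals, other filters, robust = FALSE, adjustment over tested genes, a block for the replicate number, leave-one-out fits, and for ratios no pseudocount and mean log2 references. Same-numbered rats are different animals.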

Additional observations from a re-analysis of the deposited data

Results flagged for a closer look

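The FPKM of the listed members of the gene lists and the 5 ratios, each in both groups, made 126 groups of 5 rats. Of these, 10 held a rat set apart from the other 4, by a gap larger than Dixon's 95% limit for its share of the group's range. Chance sets apart about 1 in 20 of independent groups of normally distributed values. The 126 groups share the same 10 rats, so that share is no measure of chance here. Mip, Lim2 and their ratios were not among the 10 groups with such a rat. Hypothermia rat 5 was the highest of its group in 6 of them, with an FPKM of 1559 for Bfsp1 (next 799), 18.4 for Gje1 (next 9.50), 45.7 for Hsf4 (next 27.5), 6.29 for Prkca (next 3.42), 323 for Tdrd7 (next 187) and 16.8 for Tmod1 (next 6.51). Normal rat 1 was the highest in 3, with an FPKM of 25.9 for Birc7 (next 7.56), 128 for Calm2 (next 110) and 7.31 for Tmod1 (next 2.75). Emp1 was highest in Hypothermia rat 1, at 1.03 (next 0.374). These are the same rats that were highest in their groups for Mip and Lim2, except for Emp1.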

How the results depend on the processing

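The log2 fold changes of Mip and Lim2 kept their direction and their call in all 20 alternatives. Their exact permutation tests say nothing on stability, since with groups that do not overlap each p is the smallest possible, 0.0159 with 1 rat left out. The count of DEGs was 392, 331 higher and 61 lower. With listed-gene totals it was 1204 (37 higher, 1167 lower), with TMM 186 higher and 205 lower, with upper-quartile factors 167 and 231, and with DESeq2's own factors 241 and 345. Leaving out 1 rat gave between 232 (without Normal rat 4) and 469 DEGs. Of the 51 listed members of the 7 lens gene lists, 42 were called higher and 2 lower, against 52.3% and 20.5% of all tested genes. With listed-gene totals 14 were higher and 11 lower, and the higher count lay between 27 (without Normal rat 4) and 43 with 1 rat left out. With listed-gene totals the median log2 fold change of all genes fell by 1.23, and the cause was not tested.

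With 1 rat left out, the log2 difference of the Mip to Lim2 ratio lay between 0.37 and 0.62 and that of the Mip to crystallin ratio between 1.08 and 1.45, where some calls changed as described. With the mean of log2 values as the reference, the difference to crystallins was 0.996 for Mip and 0.51 for Lim2. In a sign-flip test with the replicate number as a block, the ratios of Mip to crystallins (1.24), Lim2 to crystallins (0.75), Mip to beaded filament genes (1.48) and Lim2 to beaded filament genes (0.997) had an exact p of 0.0625, the smallest that 5 pairs allow, so this says nothing on their stability. With that block edgeR gave 3.35 (standard error 0.43) for Mip, 2.86 (standard error 0.35) for Lim2 and 296 DEGs. Deviations of same-numbered rats correlated by -0.169 to 0.234 over genes, and in 0 of 5 cases was the own number the closest, so the rats share only a number. Depth of each whole library is unknown, since only listed genes were counted here.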
